A study of Homo sapiens with 12 samples.

Results

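The genes described here encode potassium channels and their accessory subunits, read by PRO-seq in T47D, an estrogen receptor-positive line of human luminal breast cancer cells. PRO-seq captures the short RNA that polymerases already on DNA go on making in isolated nuclei. A level here therefore reflects transcribing polymerase and, unless given per kilobase, is not divided by gene length. It is not an amount of mRNA, protein or current. The members were selected on their mean raw count: every symbol that begins with KCN and holds no hyphen was kept where its mean was at least 20 counts over the 12 libraries, and 49 of 99 such symbols in a table of 60605 gene IDs passed. That choice also named KCNK5 for its rise with estradiol and KCNC1 for its rise with starvation, so those 2 differences are described here without a test. All 49 members were among the 23375 genes tested, and only KCNF1, with a mean of 20 counts, would have fallen under the minimum without 1 of the groups (18.4 counts without its highest group).

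The 12 libraries formed 6 groups of 2. In complete medium, cells received vehicle (0.1% DMSO by volume), or fulvestrant, raloxifene or tamoxifen at 100 nM each. Hormone-starved cells received vehicle (0.1% DMSO) or 1 nM estradiol, and what estradiol was dissolved in was not given in the sources used here. The time in medium was 3 days and each treatment lasted 1 h. All groups are the same cell line with no genetic change, and since no label ties the libraries of a group to separate cultures, each p-value compares a difference with the spread of these libraries only, which may be technical.

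Potassium channels let potassium leave cells down its gradient and set the resting membrane potential, cell volume and, in excitable cells, the shape and timing of action potentials. Voltage-gated (Kv) alpha subunits open when the membrane depolarises, calcium- and sodium-activated channels answer ions inside the cell, inward rectifiers pass current best near the resting potential, and tandem-pore-domain (K2P) channels carry background current. Accessory subunits change the gating, assembly or surface level of the pore-forming ones. In breast epithelium, a tissue that does not fire action potentials, potassium channels are studied for their part in proliferation, migration and ion transport.

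Upstream sequence is shown for 5 members with changes described below, so that the letters before each start can be read beside the response. Each of their gene starts matched an entry of the RefSeq promoter table (assembly GRCh38.p14). Other members with changes and such an entry, among them KCNT2 and KCNG3, are not shown. Each run is the 250 bases before the gene start, 5′ to 3′ on the gene's strand. Capitals mark GGTCA or its reverse complement TGACC, the 5-base arm of an estrogen response element.
KCNK5, chr6:39229476-39229725, minus strand: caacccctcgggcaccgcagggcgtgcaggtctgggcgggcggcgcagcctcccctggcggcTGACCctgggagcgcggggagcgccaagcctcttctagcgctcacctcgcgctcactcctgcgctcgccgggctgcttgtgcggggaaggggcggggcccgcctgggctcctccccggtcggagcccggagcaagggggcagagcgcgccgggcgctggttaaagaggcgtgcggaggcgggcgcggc
KCNH1, chr1:211134149-211134398, minus strand: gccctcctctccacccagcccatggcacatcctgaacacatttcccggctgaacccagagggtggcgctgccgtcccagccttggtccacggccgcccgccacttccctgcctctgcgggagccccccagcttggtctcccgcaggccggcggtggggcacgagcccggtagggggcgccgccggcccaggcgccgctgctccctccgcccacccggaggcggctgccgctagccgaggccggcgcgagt
KCNQ5, chr6:72621814-72622063, plus strand: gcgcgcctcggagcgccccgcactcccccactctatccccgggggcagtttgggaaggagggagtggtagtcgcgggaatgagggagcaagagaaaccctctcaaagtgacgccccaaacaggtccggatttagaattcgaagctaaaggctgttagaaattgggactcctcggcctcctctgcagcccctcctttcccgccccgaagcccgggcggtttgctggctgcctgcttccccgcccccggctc
KCNK6, chr19:38319595-38319844, plus strand: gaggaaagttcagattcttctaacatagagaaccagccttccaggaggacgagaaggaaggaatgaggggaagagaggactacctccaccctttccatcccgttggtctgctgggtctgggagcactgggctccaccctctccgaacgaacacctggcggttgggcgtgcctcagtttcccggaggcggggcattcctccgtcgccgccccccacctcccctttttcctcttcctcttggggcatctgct
KCNC1, chr11:17734531-17734780, plus strand: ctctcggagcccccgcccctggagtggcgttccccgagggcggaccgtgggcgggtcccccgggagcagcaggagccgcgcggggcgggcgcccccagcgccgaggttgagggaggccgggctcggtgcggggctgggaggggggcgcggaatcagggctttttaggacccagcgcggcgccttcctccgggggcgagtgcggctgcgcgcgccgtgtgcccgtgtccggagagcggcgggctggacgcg
KCNK5 was the only one of these 5 with a match, TGACC with its first base at -188 from the gene start. Over both strands, GGTCA was found in the same window of 6 of the 30 members with an entry at their gene start (20%; KCNE1, KCNF1, KCNH8, KCNJ14, KCNK5 and KCNS3) and in 32.7% of all 35116 promoters of the table. The full element GGTCANNNTGACC, which contains the shorter arm, was in 0 of the 30 and in 0.0399% of all promoters. The GC box GGGCGG was in 21 of the 30 (70.0%), against 42.6% of all promoters, and the AP-1 element TGANTCA in 0 of the 30, against 6.57%. These shares are of unlike sets. Members were counted only at their own gene start, whereas the share of all promoters covers every entry, whether or not its gene was transcribed here. KCNK5, KCNH1, KCNQ5, KCNK6 and KCNC1 all hold a GC box in the window. A match is a string of letters and not a measured binding site.

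Library totals ran from 3682311 to 7856803 counts, and levels are given as TMM-scaled CPM (counts of a gene relative to the scaled library total), mean ± SD of 2 libraries. All 8 luminal markers were transcribed in every library (summed level 3290 to 4327 CPM), and the 6 basal or mesenchymal markers summed to between 12.4 and 20.3 CPM. Of these, KRT5 and KRT14, which define basal cells, reached at most 0.204 and 0.271 CPM, and TP63 was the highest, at 3.65 to 8.1 CPM. The endothelial, stromal and blood markers summed to between 22.0 and 32.9 CPM. Of these, COL1A1 was the highest, at 16.0 to 23.9 CPM, and COL3A1 and PTPRC were at most at 0.36 and 0.55 CPM. GREB1, a classical estrogen target, rose by 2.22 ± 0.055 on the log2 scale (± standard error of the fit, here and below) with estradiol, and changed by -2.07 with starvation, -1.15 with fulvestrant, -0.47 with raloxifene and -0.25 with tamoxifen, the last not past the threshold (adjusted p = 0.098, edgeR's quasi-likelihood test with Benjamini-Hochberg adjustment). Raloxifene library 3 stands apart among low genes: it held the highest level of 12 of the 49 members and of 8.51% of all tested genes. The 24 members with a mean under 10 CPM summed to 177 CPM in that library and to 119 to 152 CPM in the other 11.

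Transcription of potassium channel genes in T47D cells was concentrated in a few loci. KCNMA1, the pore-forming subunit of the large-conductance calcium-activated (BK) channel, held 28.4% of all member CPM, with a mean level of 636 CPM over the 12 libraries. KCNH1, an ether-à-go-go voltage-gated channel of neurons that many tumours also express, followed with 315 CPM, and KCNK2, a mechanically gated K2P channel, with 307 CPM. KCNQ5, a subunit of the slow muscarine-sensitive current, was also among the highest, with 166 CPM. By class, the 21 Kv alpha subunits held 39.3% of member CPM, the 5 calcium- and sodium-activated channels 29.3%, the 7 K2P channels 18.4%, the 12 accessory subunits 9.47% and the 4 inward rectifiers 3.43%. These shares follow gene span as well as polymerase density: the members' median span was 73.8 kb, against 29.2 kb for the tested genes with a span in RefSeq, and 23 of 49 spanned over 100 kb.

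Per kilobase of gene span the order was another. Among the highest were the K2P gene KCNK6 with 3.12 CPM per kb, KCNK7, a K2P subunit not known to conduct by itself, with 2.22, KCNJ14, an inward rectifier, with 2.17, and KCNF1, a silent Kv subunit that modifies other Kv channels, with 1.45 CPM per kb. KCNMA1, which spans 768 kb, came to 0.828 CPM per kb and was the 15th of the 49 on this scale. The members' median was 0.288 CPM per kb, against 1.03 over the tested genes with a span.

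Much of the family was at or near the limit of these libraries. Just inside the count minimum were KCNF1 (mean 20 counts) and KCNK13, a K2P channel (21.9), and just outside were KCND3, an A-type Kv channel (17.8), and KCNJ3, a G protein-gated inward rectifier (15.6). Of 40 symbols for Kv alpha subunits, 21 were members, of 16 for inward rectifiers 4, of 15 for K2P channels 7, of 17 for accessory subunits 12 and of 8 for calcium- and sodium-activated channels 5, and the other 3 of the 99 symbols are non-coding RNAs or a pseudogene. None of the Kv genes of the KCNA group was a member, the highest being KCNA2 with a mean of 8.42 counts. KCNH2, which encodes the cardiac delayed rectifier hERG, had 6.00 counts, and KCNN4, the intermediate-conductance calcium-activated channel, 5.83 counts per library.

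**Figure D1:**
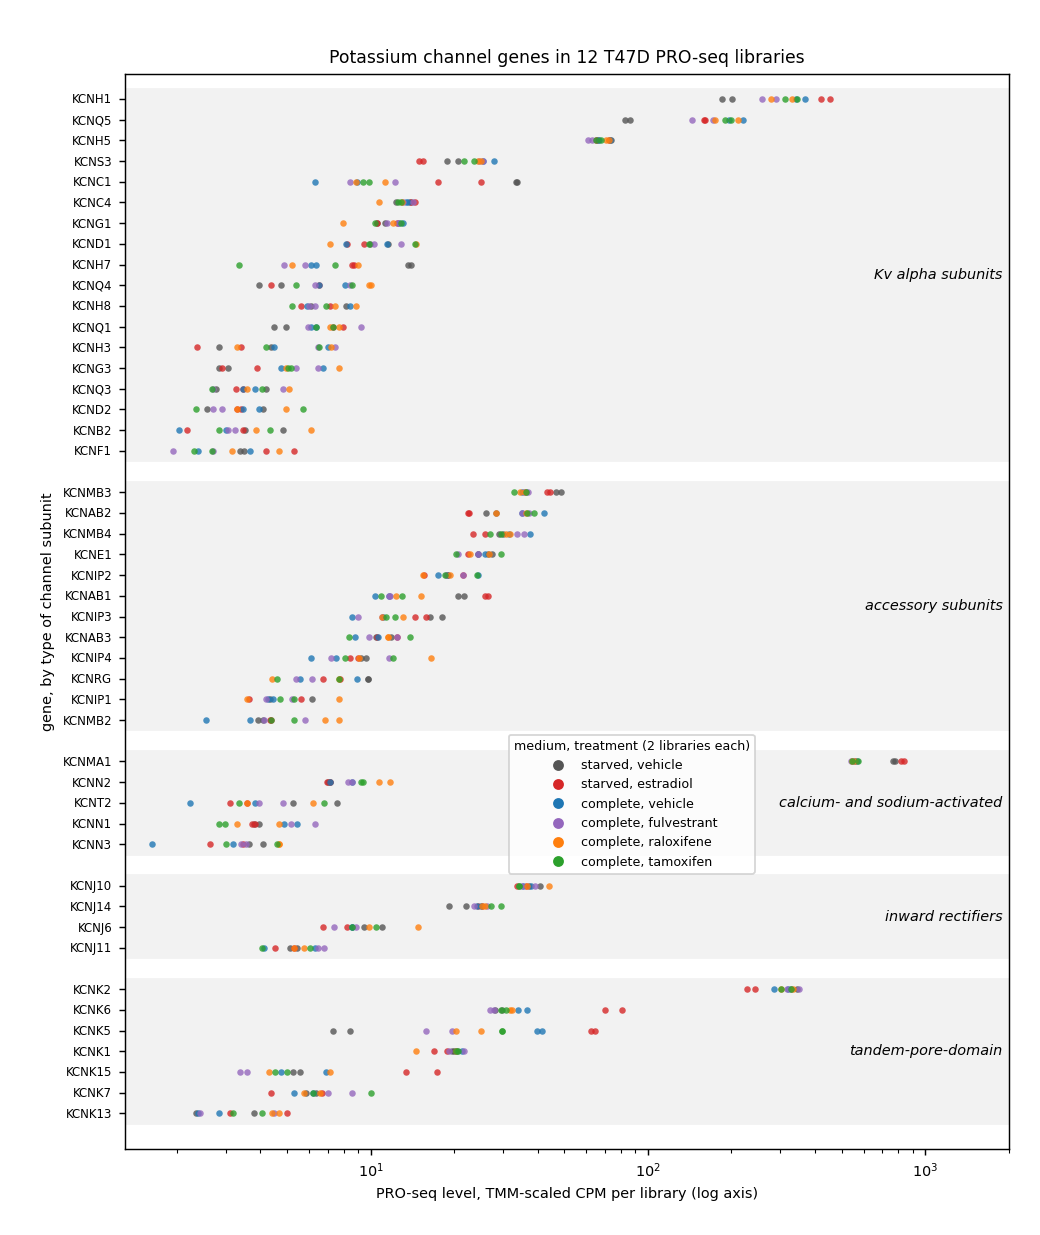
Level of the members reported here in each of the 12 libraries, in TMM-scaled CPM on a log axis, grouped by type of subunit and coloured by medium and treatment. KCNMA1, KCNH1, KCNK2 and KCNQ5 lie apart from the other members plotted, and KCNK5 is the member whose groups are spread widest, from 7.31 to 64.6 CPM.

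KCNK5 encodes an acid-sensitive K2P background channel that takes part in cell volume regulation and renal bicarbonate transport (ENSG00000164626, chromosome 6, 39188971 to 39229475, minus strand, GRCh38.p14). Its level was 8.40 and 7.31 CPM in the starved vehicle libraries and 62.4 and 64.6 CPM in the estradiol libraries. It was 41.7 and 39.7 CPM with vehicle in complete medium, 15.8 and 19.6 with fulvestrant, 25.1 and 20.4 with raloxifene, and 29.8 and 29.9 with tamoxifen. The 6 groups did not overlap in any library, in the order starved vehicle, fulvestrant, raloxifene, tamoxifen, complete vehicle and estradiol, although the raloxifene library at 20.4 CPM lay close to the fulvestrant library at 19.6. Estradiol was 3.01 ± 0.13 above starved vehicle on the log2 scale, an 8.04-fold difference, with a 95% interval of 2.74 to 3.28. No transcribed gene lies within 50 kb of KCNK5 in the RefSeq table.

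**Figure D2:**
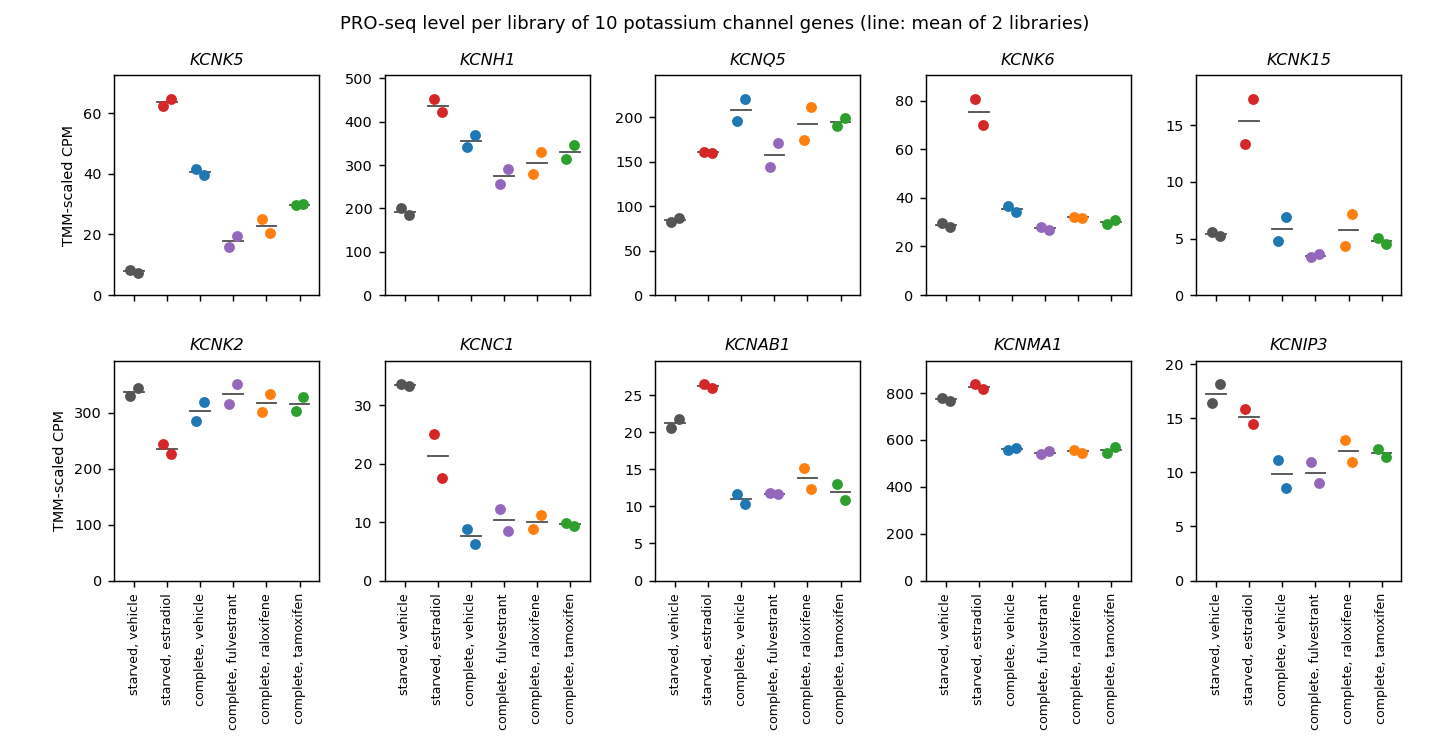
TMM-scaled CPM of 10 members in each library, with a line at the mean of the 2 libraries of a group. KCNK5, KCNH1 and KCNQ5 are lowest in starved vehicle, KCNK6 and KCNK15 stand out in the estradiol group alone, and KCNC1, KCNAB1 and KCNMA1 are high in both starved groups.

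The comparison of estradiol with vehicle in starved cells asks which genes are transcribed more or less within 1 h of the hormone. Among the other 48 members, 4 rose (8.33%; KCNH1, KCNQ5, KCNK6 and KCNK15) and 3 fell (6.25%; among them KCNK2 and KCNC1), where 5.04% of the 23375 tested genes rose and 3.74% fell by the same rule (adjusted p under 0.05, edgeR's quasi-likelihood test with Benjamini-Hochberg adjustment over all tested genes). KCNC1 was named from the starved vehicle libraries, so its fall is not independent of that choice. With it left out, 4 of 47 members rose (8.51%) and 2 fell (4.26%). The members' median log2 fold change was -0.11, against -0.01 over all tested genes.

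KCNH1 (ENSG00000143473, chromosome 1, 210678314 to 211134148, minus strand) had 201 and 184 CPM with starved vehicle and 453 and 422 CPM with estradiol. It rose by 1.18 ± 0.078 (adjusted p = 5.97e-10, edgeR's quasi-likelihood test with Benjamini-Hochberg adjustment), to levels above all 10 other libraries. KCNQ5 (ENSG00000185760, chromosome 6, 72622064 to 73198853, plus strand) went from 82.6 and 86.1 CPM to 161 and 160 CPM, a rise of 0.93 ± 0.091 (adjusted p = 2.98e-07, same test). In contrast to KCNH1, KCNQ5 with estradiol remained below the complete vehicle libraries, at 196 and 221 CPM. Gene spans differ widely, at 456 kb for KCNH1 and 577 kb for KCNQ5 against 40.5 kb for KCNK5. The part of gene span in the size of changes after 1 h was not tested, for these or other members.

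Among the K2P channels, KCNK6, known from lysosomes and blood vessels (ENSG00000099337, chromosome 19, 38319845 to 38332076, plus strand), had 29.8 and 28.1 CPM with starved vehicle and 80.7 and 69.9 CPM with estradiol. It rose by 1.38 ± 0.094 (adjusted p = 9.39e-10, edgeR's quasi-likelihood test with Benjamini-Hochberg adjustment), and the 10 libraries without added estradiol lay between 27.0 and 36.6 CPM. YIF1B, which overlaps KCNK6 on the opposite strand, differed by 0.37 (adjusted p = 0.13, same test). KCNK15, a K2P subunit for which no current of its own is known (ENSG00000124249, chromosome 20, 44745865 to 44752313), went from 5.55 and 5.26 CPM to 13.4 and 17.3 CPM, a rise of 1.49 ± 0.22 (adjusted p = 8.08e-05, same test). Every other library was at or below 7.15 CPM. KCNK15 overlaps RIMS4, which rose by 1.22 (adjusted p = 5.5e-05, same test), and KCNK15-AS1, which differed by -0.03, and because the counting's strand setting was not given in the sources used here, the reads of KCNK15 and RIMS4 cannot be told apart.

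Falls with estradiol were smaller than these rises. KCNK2 (ENSG00000082482, chromosome 1, 215005542 to 215237090, plus strand) fell from 329 and 344 CPM to 244 and 227 CPM, by 0.51 ± 0.070 on the log2 scale (adjusted p = 2.38e-05, edgeR's quasi-likelihood test with Benjamini-Hochberg adjustment). The estradiol libraries were the lowest of all 12 for KCNK2, below the complete medium libraries at 285 to 351 CPM. KCNC1, a fast-deactivating Kv channel of rapidly firing neurons (ENSG00000129159, chromosome 11, 17734781 to 17783057, plus strand), went from 33.6 and 33.3 CPM to 25.0 and 17.5 CPM, a difference of -0.64 ± 0.15 (adjusted p = 0.0091, same test). The starved vehicle libraries of KCNC1 also served in the comparison that named it, so this value is not independent of the choice. The call for KCNC1 did not hold in every reanalysis: its adjusted p was 0.082 and 0.074 without starved vehicle library 3 or 4, 0.22 without estradiol library 4 and 0.12 with DESeq2.

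The other 41 members did not pass the threshold with estradiol, at log2 fold changes between -0.94 and 0.69. Both extremes were low genes: KCNT2, a sodium-activated channel, at -0.94 ± 0.34 and KCNQ1, the alpha subunit of the slow cardiac delayed rectifier, at 0.69 ± 0.24, with adjusted p = 0.11 and 0.078 (edgeR's quasi-likelihood test with Benjamini-Hochberg adjustment). By class, 2 Kv alpha subunits rose and 2 fell of 21 (9.52% each), against 5.04% and 3.74% of all tested genes. Of the 6 K2P channels other than KCNK5, 2 rose and 1 fell, a set too small for a share to be read. None of the 12 accessory subunits, 5 calcium- and sodium-activated channels and 4 inward rectifiers passed (3, 2 and 1 of them had an unadjusted p under 0.05, in edgeR's test). KCNMA1, the most transcribed member, had 780 and 765 CPM with vehicle and 837 and 818 CPM with estradiol, a difference of 0.10 with a 95% interval of 0.0052 to 0.19, which did not pass (adjusted p = 0.23, edgeR's quasi-likelihood test with Benjamini-Hochberg adjustment).

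The comparison of starved with complete medium in vehicle-treated cells asks which genes differ between the 2 media after 3 days. Of the 48 members other than KCNC1, 8 were higher in starved cells (16.7%) and 6 lower (12.5%), against 9.1% of all tested genes higher and 9.67% lower (edgeR's quasi-likelihood test with Benjamini-Hochberg adjustment, adjusted p under 0.05). KCNK5 was also named with the starved vehicle libraries. With it left out too, 8 of 47 members were higher (17%) and 5 lower (10.6%). The members' median log2 fold change was 0.04, against 0.01 over all tested genes. The starved vehicle libraries serve in this comparison and in that of estradiol, so the values of a gene in the 2 comparisons are not independent and are set side by side only.

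KCNC1 was at 33.6 and 33.3 CPM in starved vehicle and at 8.91 and 6.31 CPM in complete vehicle, 2.11 ± 0.19 higher on the log2 scale, with a 95% interval of 1.71 to 2.50. Starved cells with estradiol lay between, at 25.0 and 17.5 CPM, and the 6 libraries with antiestrogens were at 8.45 to 12.3 CPM. KCNC1 lies 4.99 kb from SERGEF, transcribed on the other strand, which was 0.43 higher in starved cells (adjusted p = 0.00028, edgeR's quasi-likelihood test with Benjamini-Hochberg adjustment).

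Another Kv gene, KCNH7, an ether-à-go-go related channel, rose by 1.15 ± 0.25 with starvation (adjusted p = 0.0026, edgeR's quasi-likelihood test with Benjamini-Hochberg adjustment), from 6.24 ± 0.18 to 13.9 ± 0.25 CPM. It overlaps GCA, which rose by 0.37.

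KCNMA1 (ENSG00000156113, chromosome 10, 76869602 to 77637808, minus strand) had 556 and 565 CPM in complete vehicle and 780 and 765 CPM in starved vehicle. The rise of 0.46 ± 0.046 was small but exceeded the spread between libraries (adjusted p = 2.14e-07, edgeR's quasi-likelihood test with Benjamini-Hochberg adjustment). The 8 libraries of complete medium lay between 538 and 571 CPM and the 4 starved libraries between 765 and 837 CPM, so the media did not overlap. KCNMB3, a beta subunit of the BK channel, rose by 0.42 ± 0.092 (adjusted p = 0.0025, same test; 0.050 with DESeq2) from 35.8 ± 0.92 to 47.7 ± 1.5 CPM. KCNMB3 overlaps the end of PIK3CA, which is transcribed from the other strand at 121 CPM and differed by 0.12 (adjusted p = 0.25, same test). The locus LRRFIP1P1 lies wholly inside KCNMB3, at 10.5 CPM, and rose by 0.58 with starvation (adjusted p = 0.016, same test), so the reads of those 2 cannot be told apart. KCNT2 rose by 1.05 ± 0.35 (adjusted p = 0.042, same test), but its adjusted p was 0.32 without starved vehicle library 3, 0.058 and 0.29 without complete vehicle library 3 or 4, and 0.16 with DESeq2.

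Of the accessory subunits of Kv channels, KCNAB1, a beta subunit that speeds inactivation (ENSG00000169282, chromosome 3, 156118211 to 156539138, plus strand), had 11.6 and 10.4 CPM in complete vehicle and 20.6 and 21.8 CPM in starved vehicle, a rise of 0.94 ± 0.15 (adjusted p = 7.44e-05, edgeR's quasi-likelihood test with Benjamini-Hochberg adjustment). With estradiol it was at 26.4 and 25.9 CPM, above both vehicle groups, although that difference from starved vehicle was not past the threshold (adjusted p = 0.15, same test). KCNIP3, a calcium-binding protein that serves Kv channels and also represses transcription (ENSG00000115041, chromosome 2, 95297347 to 95386077, plus strand), went from 11.1 and 8.55 CPM to 16.4 and 18.1 CPM, a rise of 0.79 ± 0.17 (adjusted p = 0.0017, same test). KCNAB2, another Kv beta subunit, fell by 0.52 ± 0.12 (adjusted p = 0.0033, same test), from 38.8 ± 5.0 to 27.2 ± 1.6 CPM. That call ended without complete vehicle library 3 (adjusted p = 0.14) or starved vehicle library 4 (0.052). In total 3 of 12 accessory subunits rose (25%) and 1 fell (8.33%), against 9.1% and 9.67% of all tested genes.

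Among the genes that fell with starvation were KCNK5, KCNQ5 and KCNH1, which were higher with estradiol. KCNK5 was 2.37 ± 0.14 lower in starved than in complete vehicle (adjusted p = 1.26e-10, edgeR's quasi-likelihood test with Benjamini-Hochberg adjustment), and as the comparison that named it shares the starved vehicle libraries, this value is not independent of the choice. KCNQ5 fell by 1.3 ± 0.090 (adjusted p = 1.28e-09, same test), from 196 and 221 CPM to 82.6 and 86.1 CPM, and KCNH1 by 0.88 ± 0.079 (adjusted p = 5.29e-08, same test), from 342 and 369 CPM to 201 and 184 CPM. For KCNH1 and KCNQ5 the starved vehicle libraries were the lowest of all 12. KCNK6 and KCNK15, which also rose with estradiol, were at -0.29 ± 0.11 and -0.09 ± 0.27 with starvation (adjusted p = 0.064 and 0.88, same test).

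KCNS3 and KCNG3, silent Kv subunits that modify other Kv channels, fell by 0.44 ± 0.12 and 0.93 ± 0.29 with starvation (adjusted p = 0.0091 and 0.030, edgeR's quasi-likelihood test with Benjamini-Hochberg adjustment). KCNS3 went from 26.6 ± 1.7 to 19.7 ± 1.3 CPM and KCNG3 from 5.75 ± 1.4 to 2.96 ± 0.16 CPM. Both calls ended when libraries were left out: the adjusted p of KCNS3 was 0.12 without starved vehicle library 3 and 0.14 without complete vehicle library 3, and that of KCNG3 was 0.16 and 0.10 without starved vehicle library 3 or 4 and 0.27 without complete vehicle library 4. With DESeq2 they were 0.13 and 0.16. The 4 inward rectifiers gave no call with starvation in edgeR's test (1 had an unadjusted p under 0.05), nor did 6 of the 7 K2P channels.

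Several members are best known from neurons, and the fixed neuronal markers were not uniform over the media. Their summed level was 372 to 396 CPM in starved vehicle, 303 to 337 CPM with estradiol and 242 to 274 CPM in complete vehicle. Only MAP2 of the 4 tested moved with starvation, by 1.68 ± 0.066 (adjusted p = 3.04e-13, edgeR's quasi-likelihood test with Benjamini-Hochberg adjustment), while SYT1, TUBB3 and RBFOX3 were at -0.05, -0.09 and 0.16. Over the libraries, SYT1 was at 105 to 122 CPM, MAP2 at 59.6 to 193 CPM and TUBB3 at 45.3 to 102 CPM. RBFOX3 was at 5.39 to 11.8 CPM, and SNAP25 was at most at 2.03 CPM in any library. The part of the neuronal markers in the starvation values of the Kv channels was not tested.

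**Figure D3:**
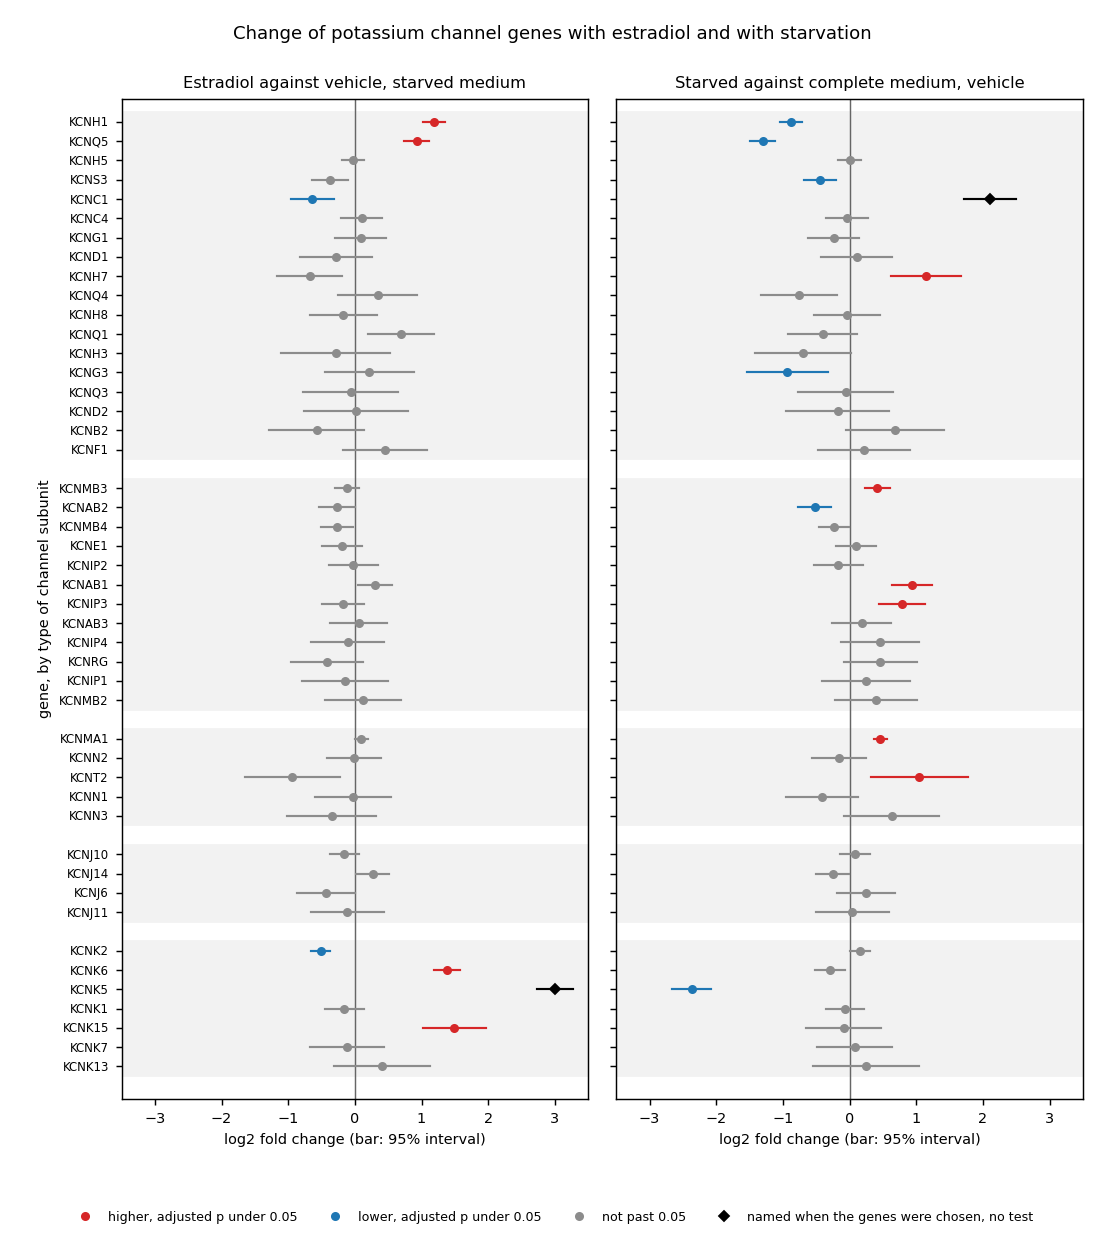
Log2 fold changes of the members reported here with estradiol (left) and with starvation (right), with 95% intervals of the fit, grouped as in the plot of levels, and with calls coloured by direction. KCNH1 and KCNQ5 are red on the left and blue on the right, and the black diamonds mark the 2 differences that were named when the genes were chosen.

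Starved cells given estradiol were also set against complete medium with vehicle, a comparison of groups that differ in medium and treatment. Of the 47 members other than KCNK5 and KCNC1, 9 were higher (19.1%) and 6 lower (12.8%), where 8.09% of tested genes were higher and 8.11% lower (edgeR's quasi-likelihood test with Benjamini-Hochberg adjustment). Among those higher with estradiol than in complete medium were KCNK15 (1.41 ± 0.23), KCNAB1 (1.24 ± 0.14), KCNK6 (1.09 ± 0.095), KCNIP3, KCNMA1 (0.56 ± 0.046), KCNH1 and KCNMB3. Among those lower were KCNS3 (-0.81 ± 0.12), KCNAB2 (-0.79 ± 0.13), the BK beta subunit KCNMB4, KCNQ5 (-0.37 ± 0.085) and KCNK2 (-0.36 ± 0.071). KCNK5 and KCNC1 were 0.64 ± 0.10 and 1.47 ± 0.21 higher. No p-value is given for them, because the estradiol libraries served when KCNK5 was named and the complete vehicle libraries when KCNC1 was.

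Without estradiol library 3, 6 of these calls ended, among them KCNMB4 (adjusted p = 0.085), KCNH1 (0.092), KCNMB3 (0.11) and KCNIP3 (0.15), which left 11 of 17 with KCNK5 and KCNC1 counted. KCNQ5 was lost without complete vehicle library 4 (adjusted p = 0.10). The calls for KCNH1 (0.12), KCNMB3 (0.21) and KCNMB4 (0.16) were lost without complete vehicle library 3, those for KCNMB3 (0.10) and KCNIP3 (0.19) without complete vehicle library 4, and that for KCNMB3 (0.16) without estradiol library 4. With DESeq2 the calls for KCNMB3 (0.26), KCNMB4 (0.054) and KCNIP3 (0.15) were lost.

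The 3 antiestrogens, given at 100 nM for 1 h in complete medium, share the complete vehicle libraries as their control. Fulvestrant blocks the estrogen receptor and causes it to be degraded, whereas raloxifene and tamoxifen, of other chemical classes, block or activate it depending on the tissue. With fulvestrant, 3 of 49 members fell (6.12%) and 0 rose, where 1.05% of tested genes fell and 0.107% rose (edgeR's quasi-likelihood test with Benjamini-Hochberg adjustment). In total 6 members had an unadjusted p under 0.05, and DESeq2 likewise called 3 lower and 0 higher. The members' median log2 fold change was 0.02, against 0.01 over all tested genes.

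KCNK5 fell by 1.21 ± 0.12 with fulvestrant (adjusted p = 3.71e-06, edgeR's quasi-likelihood test with Benjamini-Hochberg adjustment; 95% interval -1.47 to -0.95), from 41.7 and 39.7 CPM to 15.8 and 19.6 CPM. None of these 4 libraries was used when KCNK5 was named for its estradiol response. KCNQ5 had 144 and 171 CPM with fulvestrant and 196 and 221 CPM with vehicle, a fall of 0.40 ± 0.086 (adjusted p = 0.017, same test), and KCNH1 had 257 and 291 CPM against 342 and 369 CPM, a fall of 0.37 ± 0.078 (adjusted p = 0.013, same test). The fulvestrant and vehicle libraries did not overlap for any of the 3. With 2 libraries a group this is a weak criterion, and the share of all tested genes that meet it was not counted. The calls for KCNQ5 and KCNH1 rest on few libraries: without fulvestrant library 3 the adjusted p was 0.47 and 0.35, without complete vehicle library 4 it was 0.37 and 0.26, and without complete vehicle library 3 that of KCNH1 was 0.051.

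KCNK6 had 27.9 and 27.0 CPM with fulvestrant against 36.6 and 34.0 CPM with vehicle, and KCNK15 had 3.39 and 3.6 CPM against 4.77 and 6.92 CPM. Their log2 fold changes of -0.37 ± 0.11 and -0.72 ± 0.30 did not pass (adjusted p = 0.19 and 0.57, edgeR's quasi-likelihood test with Benjamini-Hochberg adjustment). The estradiol and the fulvestrant comparison share no library. Across the 49 members, the log2 fold changes of the 2 comparisons correlated with Pearson's r of -0.66 and Spearman's rho of -0.30, and without KCNK5 r was -0.48 over 48 genes. KCNC1 was kept in each of these values, and its choice used the starved and complete vehicle libraries, the controls of the 2 comparisons. These values are therefore not independent of the choice of the named genes. The same correlation over all tested genes was not computed. This is a description across genes, which are not independent replicates and share the 12 libraries' depth, and most members lay near 0 in both.

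With raloxifene, 1 of 49 members fell (2.04%) and 1 rose (2.04%), where 0.479% of tested genes fell and 0.0898% rose (edgeR's quasi-likelihood test with Benjamini-Hochberg adjustment). KCNK5 fell by 0.80 ± 0.12 to 25.1 and 20.4 CPM (adjusted p = 0.0014, same test; 0.057 without complete vehicle library 3). KCNMB2, a beta subunit that inactivates the BK channel (ENSG00000197584, chromosome 3, 178536436 to 178844429, plus strand), had 7.72 and 6.88 CPM with raloxifene and 2.54 and 3.67 CPM with vehicle, a rise of 1.28 ± 0.28 (adjusted p = 0.034, same test). Its call ended without raloxifene library 3 (adjusted p = 0.24), without complete vehicle library 3 (0.51) or 4 (0.098), and in a fit of the 4 libraries alone (0.11), and DESeq2 gave it no adjusted p. KCNMB2 overlaps KCNMB2-AS1, which was transcribed at 188 CPM, against a mean of 4.76 CPM for KCNMB2, and was at 0.02 with raloxifene on the log2 scale. The members' median log2 fold change with raloxifene was 0.10, against 0.01 over all tested genes, beside the raised sum of low members in raloxifene library 3, whose part in this was not tested.

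With tamoxifen, 0 of 49 members passed in edgeR's quasi-likelihood test with Benjamini-Hochberg adjustment, where 0.00428% of tested genes rose and 0.0471% fell. In total 6 had an unadjusted p under 0.05, and DESeq2 called 0 of the 6 members to which it gave an adjusted p. KCNK5 had 29.8 and 29.9 CPM against 41.7 and 39.7 CPM with vehicle, a log2 fold change of -0.45 ± 0.11 with a 95% interval of -0.68 to -0.22, and did not pass after adjustment over all genes (adjusted p = 0.29, edgeR's quasi-likelihood test with Benjamini-Hochberg adjustment). KCNH1 and KCNQ5 were at -0.11 ± 0.076 and -0.10 ± 0.083.

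At the shared dose and time the drugs were compared with each other in 3 pairs, each adjusted over all tested genes. KCNK5 was 0.76 ± 0.13 higher with tamoxifen than with fulvestrant, a 1.69-fold difference with a 95% interval of 0.49 to 1.03 (adjusted p = 0.0039, edgeR's quasi-likelihood test with Benjamini-Hochberg adjustment; 0.22 without fulvestrant library 3). It was the only member of 49 called in that pair, where 0.462% of tested genes were called in either direction. Between raloxifene and fulvestrant, KCNK5 differed by 0.41 ± 0.14, with an interval of 0.12 to 0.69, and between tamoxifen and raloxifene by 0.35 ± 0.12, with an interval of 0.10 to 0.61, and neither passed (adjusted p = 0.84 and 1.0, same test).

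In those 2 pairs 0 of 49 members were called by edgeR's quasi-likelihood test with Benjamini-Hochberg adjustment, where 0.103% of tested genes were called for raloxifene against fulvestrant and 0.00428% for tamoxifen against raloxifene. At an unadjusted p under 0.05 there were 8 and 3 members, and DESeq2 called 0 in each. KCNQ5 was 0.27 ± 0.087 higher with raloxifene than with fulvestrant and 0.31 ± 0.085 higher with tamoxifen (95% intervals of 0.09 to 0.46 and 0.13 to 0.48), and passed in neither pair (adjusted p = 0.76 and 0.21, same test; 0.026 for raloxifene without raloxifene library 3, and 0.0018 for tamoxifen without the filter on low counts). KCNH1 was 0.14 ± 0.079 and 0.27 ± 0.077 higher (adjusted p = 0.98 and 0.27, same test; 0.0016 for tamoxifen without that filter). A p that misses the threshold does not show that the drugs act alike on these genes.

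**Figure D4:**
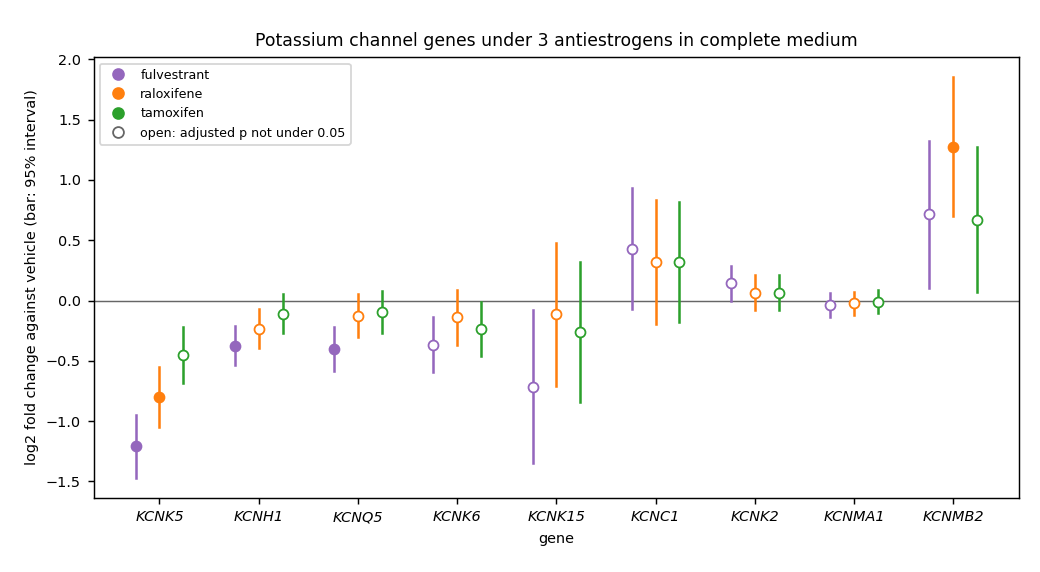
Log2 fold changes against vehicle of 9 members under fulvestrant, raloxifene and tamoxifen, with 95% intervals, where filled points passed an adjusted p of 0.05. KCNK5 steps from -1.21 to -0.80 and -0.45 over the 3 drugs, while KCNMA1 and KCNK2 lie near 0.

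Genes that handle potassium outside the KCN family were counted from a list of 50: regulatory partners of the channels, other potassium-permeable channels, pumps, potassium-chloride cotransporters and regulators of both. Of the 38 that were tested, 3 rose (7.89%) and 2 fell (5.26%) with estradiol, against 5.04% and 3.74% of all tested genes. With starvation 2 rose (5.26%) and 6 fell (15.8%), against 9.1% and 9.67%. None of the 9 tested partner subunits passed in either comparison (2 and 0 had an unadjusted p under 0.05 in edgeR's test).

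NEDD4L, a ubiquitin ligase that removes KCNQ and sodium channels from the membrane, fell by 0.42 ± 0.051 with estradiol and rose by 0.40 ± 0.051 with starvation, by 0.32 ± 0.051 with fulvestrant and by 0.26 ± 0.051 with raloxifene (adjusted p = 5.79e-06, 5.83e-06, 0.0011 and 0.018, edgeR's quasi-likelihood test with Benjamini-Hochberg adjustment). WNK1, a kinase that governs cation-chloride cotransport, rose by 0.34 ± 0.057 with estradiol and fell by 0.49 ± 0.057 with starvation, and ATP1B3, a beta subunit of the sodium-potassium pump, rose by 0.29 ± 0.071 and fell by 0.23 ± 0.072. HCN4, a pacemaker channel that passes potassium and sodium, followed from a level of 1.35 to 3.47 CPM with estradiol (1.35 ± 0.41, adjusted p = 0.044, same test) and was 1.25 lower with starvation. SLC12A2, the sodium-potassium-chloride cotransporter, fell by 0.39 ± 0.11 with estradiol (adjusted p = 0.036, same test). With starvation, WNK2 fell by 0.97 ± 0.16 and TMEM38B, a potassium-permeable channel of the endoplasmic reticulum, by 0.52 ± 0.093. The list's estradiol and starvation values share the starved vehicle libraries.

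Overlap with other transcribed genes limits some of these counts. Of the 49 members, 11 overlap a transcribed gene in the RefSeq table, among them KCNK6, KCNK15, KCNH7, KCNMB2, KCNMB3 and KCNMA1 (with KCNMA1-AS3, at 5.01 CPM), and 15 have no transcribed gene within 50 kb, among them KCNK5 and KCNK2. KCNRG, a soluble inhibitor of Kv assembly, lies within DLEU2, which was transcribed at 366 CPM against 7.05 CPM for KCNRG itself. Of the other named members, KCNH1 lies 2.02 kb from HHAT, which was at 0.17 with estradiol, and KCNQ5 is 42.5 kb from its nearest transcribed neighbour. KCNAB1 lies 0.415 kb from SSR3, which was at 0.52 with estradiol (adjusted p = 0.0062, edgeR's quasi-likelihood test with Benjamini-Hochberg adjustment) and at -0.16 with starvation. KCNAB2 lies 0.251 kb from NPHP4 and 0.607 kb from CHD5, which were at -0.26 and -0.06 with starvation (adjusted p = 0.030 and 0.86, same test).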

How the data were processed

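PRO-seq of T47D cells was analysed from the authors' deposited table of raw, unnormalized counts, in whole numbers for each Ensembl gene ID. The submitters' processing notes name cutadapt 1.8.1, Bowtie2 2.4.4, SAMtools 1.9 and the build hg38. How reads were counted, on which strand and over which part of a gene was not given in the sources used here. A symbol was found for 60463 of 60605 IDs, and the other 142, with 0.281% of counts, kept their ID. IDs sharing a symbol were reduced to that of highest total, for 59410 genes in all. Groups came from the labels' descriptions, which number the libraries of a group 3 and 4.

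The counts were fitted with edgeR 4.0.16 in R 4.3.3: filterByExpr (23375 genes left), TMM scaling, and a quasi-likelihood fit of all 12 libraries with the 6 groups as its term, tested on simulated data with known changes. Benjamini-Hochberg adjustment ran over all tested genes, and calls are at an adjusted p under 0.05. The ± after a log2 fold change is the standard error of the fit, and intervals are 95%. Positions, spans, neighbours within 50 kb and promoters came from RefSeq, assembly GRCh38.p14, matched by symbol. Alternatives were DESeq2 1.42.0, RLE or no scaling, no filter on low counts, a replicate block, the 4 compared libraries alone, and each library left out.

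The 49 members, the lists and the rule for named genes were chosen with earlier results of these data known. Values per library were given for KCNK5, KCNC1, up to 8 members of smallest adjusted p with estradiol, starvation or fulvestrant, and any called between or under the other drugs, and the 5 with the highest CPM per kb were to be named. Some genes that meet this rule are not reported here. Within every group the pair of libraries was checked for being 1 library deposited again, and differed by more than sampling noise (chi-square per gene 1.2 to 2.36).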

Additional observations from a re-analysis of the deposited data

How the results depend on the processing

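Of 44 pairs of a gene and a comparison past the threshold, 25 passed under every alternative and the other 19 lost their call under at least 1 of them. The 25 include KCNK5 and KCNC1 for estradiol in starved against vehicle in complete medium. The 44 also include KCNC1 with estradiol and KCNK5 with starvation. These pairs are not independent of the choice of those genes. None of the 44 changed direction. Library totals limit the 24 members under 10 CPM, whose calls rest on few counts. The number of members called with estradiol, with starvation and for estradiol in starved against vehicle in complete medium stayed within 1.5 times of 7, 14 and 17, except without estradiol library 3, where the last was 11 (11 to 15 over the left-out libraries). With fulvestrant, 3 members were called and 1 to 3 when libraries were left out. With raloxifene, 2 were called, and 1 with DESeq2, 1 with the 4 compared libraries alone, 4 without the filter on low counts and 0 to 4 when libraries were left out. For tamoxifen against fulvestrant 1 was called, 3 without the filter and 0 to 1 when libraries were left out, and for raloxifene against fulvestrant 0 were called and 0 to 1 when libraries were left out. The cause of these differences was not tested.

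Same-numbered libraries deviated together with correlations of 0.047 to 0.362 over 15 pairs of groups, 10 of them over 0.1. All 15 were positive, but no label ties a number to a shared culture or day, and the numbers were not taken as a pairing. With the replicate block, the members called were 10 with estradiol, 18 with starvation, 3 with fulvestrant, 4 with raloxifene, 1 with tamoxifen (KCNK5, adjusted p = 0.022, edgeR's quasi-likelihood test with Benjamini-Hochberg adjustment), 1 for raloxifene against fulvestrant (KCNQ5, 0.012, same test) and 3 for tamoxifen against fulvestrant (KCNK5, KCNQ5 at 0.00055 and KCNH1 at 0.0043, same test). Reversals were seen only in values that passed no threshold: over the left-out libraries, KCNQ5 with raloxifene ran from -0.26 to 0.025, and for tamoxifen against raloxifene KCNH1 ran from -0.0061 to 0.24 and KCNQ5 from -0.13 to 0.16.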
